A study of Homo sapiens with 24 samples.

Results

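The mRNAs of 10 circadian clock genes were followed across all 24 libraries: PER1, PER2, PER3, CRY1, CRY2, NR1D1, NR1D2, BHLHE40, DBP and CLOCK. They were chosen by name, as core repressors, an output factor and one activator of the clock, and matched by gene symbol to 10 of the 58676 gene rows in the count tables. All 10 passed the filter on low counts, a CPM (reads of a gene scaled to a common total of gene reads per library) that reached 1 in 2 or more libraries.

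The circadian clock is a feedback loop of transcription that runs in nearly every cell, the hepatocyte included. CLOCK and its partner BMAL1 activate genes through E-box elements, among them the PER, CRY, NR1D and DBP genes, and the PER and CRY proteins return to the nucleus to block that activation. NR1D1 and NR1D2 (REV-ERB alpha and beta) repress BMAL1 in a second loop, and a repressor that is itself cleared fast, as mRNA and as protein, is part of what lets each cycle end.

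The samples were HepG2 cells, an established human liver cancer line, transfected with a non-targeting siRNA (siControl) or with siRNA to IGF2BP1, IGF2BP2 or IGF2BP3 (siIGF2BP1, siIGF2BP2 and siIGF2BP3), which encode RNA-binding proteins that act on mRNA stability. Cells were re-seeded 6 h after transfection, and 48 h later they were collected after 0, 3 or 6 h in 5 µg/ml actinomycin D, which stops transcription. Every library is polyA-selected RNA with ERCC spike-in RNA, which the study added per mass of total RNA, and the 4 conditions and 3 times give 12 groups of 2 libraries. No step that synchronizes the clock and no time of day is given in the sources used here, so every value is the mean of a cell population at one collection.

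The libraries held 31843248 to 74252042 reads assigned to genes and 50889 to 119088 ERCC reads. Each siRNA lowered its target at 0 h: IGF2BP1 stood at 701 ± 11.8 CPM (SD, n = 2) in siControl and 146 ± 1.95 in siIGF2BP1, IGF2BP2 at 193 ± 6.21 and 50.3 ± 0.743 in siIGF2BP2, and IGF2BP3 at 112 ± 1.67 and 39.7 ± 0.768 in siIGF2BP3. Hepatocyte genes marked the cells, with ALB between 10735 and 12338 CPM in the 8 libraries at 0 h, while the leukocyte gene PTPRC reached at most 0.0181 CPM and the glial gene GFAP at most 0.0872. Of the same marker lists, the hepatocyte gene TTR was far lower than ALB, at 38.6 to 51.8 CPM. PECAM1, a marker of another lineage, lay at 0.581 to 1.15 CPM. Where the labels do not say that replicates came from separate cultures, p-values measure only the spread between these libraries, which may be technical. In RNA from a whole plate, fewer cells that carry an mRNA and less of it per cell cannot be told apart.

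Before actinomycin D, BHLHE40 was the most abundant of the 10 mRNAs per length of transcript and DBP the least. Levels between genes were compared as RPKM, the CPM per kilobase of all annotated exon bases. BHLHE40 lay between 14.2 and 22.4 RPKM in the 8 libraries at 0 h, above all others of the 10 in each of them. Of the wider clock list below, HLF (57.29 and 57.15 RPKM in siControl) and NFIL3 (33.95 and 34.47) stood higher than BHLHE40. PER2 followed at 5.20 to 6.10, then NR1D1 at 4.13 to 4.97, CRY1 at 3.67 to 4.83, CLOCK at 3.21 to 4.35 and CRY2 at 3.16 to 4.0. These last 4 form a run in which each neighbour's range overlapped the next, so their order is not resolved. NR1D2 lay at 1.83 to 2.41, PER3 at 1.25 to 1.65, PER1 at 1.19 to 1.47 and DBP at 0.539 to 0.820, and among these only PER3 and PER1 overlapped. The exon length counts every annotated variant, 6485 bases for DBP and 11533 for CLOCK, and a gene with long rare variants therefore appears lower than its main mRNA is.

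**Figure D1:**
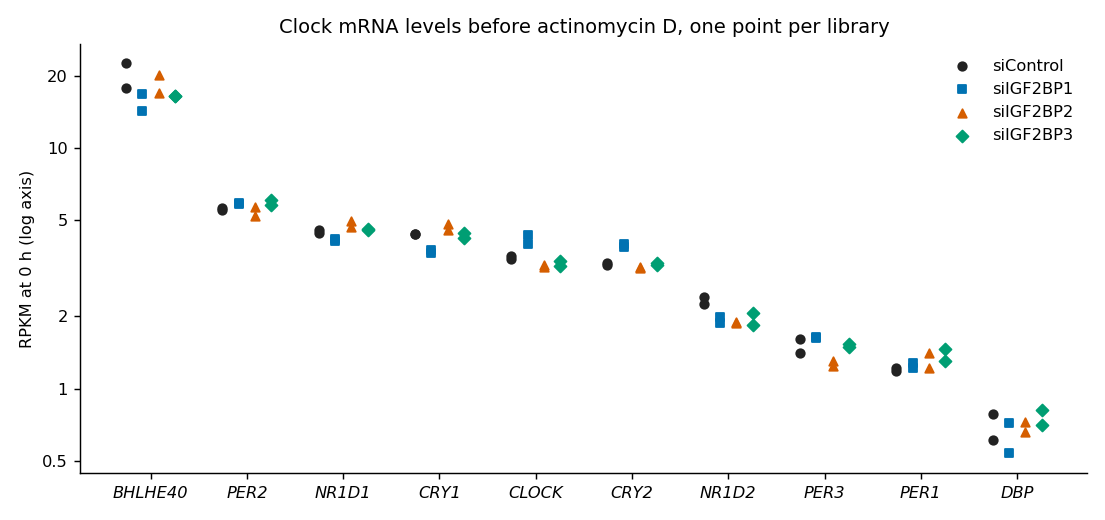
Levels of the 10 clock mRNAs at 0 h in RPKM (log axis), one point per library, with the 4 siRNA conditions side by side for each gene. BHLHE40 sits above all others in every library and DBP below all others, between 0.539 and 0.820 RPKM.

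The 3′ UTRs were searched for sequence elements known from mRNA turnover, a property the choice of genes did not use. The AU-rich nonamer TTATTTATT is bound by factors that recruit deadenylases, and the Pumilio element TGTANATA is bound by PUM proteins. Both were searched on the transcript strand of the canonical GENCODE v44 transcript (GRCh38), and the windows below carry the match in capitals, 5′ to 3′. The nonamer occurred in PER1 and CLOCK, once each. Of 2076 annotated 3′ UTRs of like length (0.8 to 1.25 times that of PER1) 3.7% held it, and of the 623 like CLOCK 29.5% did.
PER1, chr17:8140707-8140735, minus strand: ggggctgcacTTATTTATTgcggggagac
CLOCK, chr4:55433061-55433089, minus strand: tgtgcctcatTTATTTATTggcaatacct

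The Pumilio element occurred in 7 of the 10, namely PER2, PER3, CRY1, NR1D1, NR1D2, BHLHE40 and CLOCK. Shown are the sites of PER2, of the fast-lost mRNAs NR1D1 and BHLHE40, and of CRY1, which has 2 in a 3′ UTR of 638 bases. Among UTRs of like length, 1 or more such elements were present in 37.0% for PER2, 7.0% for NR1D1, 29.4% for BHLHE40 and 14.6% for CRY1, and 2 or more in 1.8% for CRY1. For the other 3 with the element the share with 1 or more was 38.3% for PER3, 45.8% for NR1D2 and 72.9% for CLOCK. NR1D2 has 2 elements in 3198 bases, and 2 or more were present in 16.8% of UTRs of like length.
PER2, chr2:238244202-238244231, minus strand: ccgaagagataTGTAAATAagctctcagag
NR1D1, chr17:40092910-40092939, minus strand: ctgagccttctTGTAAATAcctgcctccct
BHLHE40, chr3:4985087-4985116, plus strand: aggtgtaaaatTGTAAATAtttttatctat
CRY1 site 1, chr12:106991800-106991829, minus strand: aattggtaattTGTATATAaagaacttggc
CRY1 site 2, chr12:106991765-106991794, minus strand: aatttgcttaaTGTAAATAtaaacagtcac

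The shorter pentamer ATTTA, which the nonamer contains, was present 26 times in the 7512 bases of CLOCK, 14 times in the 3198 bases of NR1D2 and not at all in the 1631 bases of BHLHE40. The other members held from 1 (PER1 and DBP) to 6 (PER3). Among UTRs of like length, 18.5% held at least 26 for CLOCK and 11.1% at least 14 for NR1D2. For BHLHE40, 86.7% of them held 1 or more. A match is a string of letters and no measured site, and no match says only that these letters are not in this 3′ UTR.

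All 10 clock mRNAs fell after actinomycin D in all 4 conditions, and they spread from BHLHE40, of which at most 5.47% remained at 3 h, to PER3, of which at least 44.4% remained at 6 h in every library. Reads were scaled by each library's ERCC total and followed as a percentage of the condition's 0 h mean, and the loss was tested as a slope on time with edgeR's quasi-likelihood test, Benjamini-Hochberg adjusted over 13136 genes. Slopes are printed as the fitted log2 change across 6 h. Loss was called for 10 of 10 in each condition, beside 80.3%, 69.1%, 71.3% and 67.2% of all tested genes called lower (siControl first, then the knockdowns in order of number). The median slope of the clock mRNAs was -2.18, -1.93, -1.93 and -1.97 in the same order, beside -0.88, -0.69, -0.71 and -0.65 over all tested genes.

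Most mRNAs fell on the ERCC scale, and the scale decides the sign of slow genes. With TMM scaling, which sets the typical gene near 0, the median slope of all tested genes moved to between -0.01 and -0.04, and 9 of the 10 clock mRNAs were still called lower in each condition. PER3 was the exception in siControl (-0.16), siIGF2BP1 (0.04) and siIGF2BP2 (0.02), with adjusted p = 0.194, 0.718 and 0.884, and CRY2 in siIGF2BP3 (-0.33, adjusted p = 0.0820). On that scale a loss of PER3 beyond that of the typical mRNA was not shown in those 3 conditions.

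**Figure D2:**
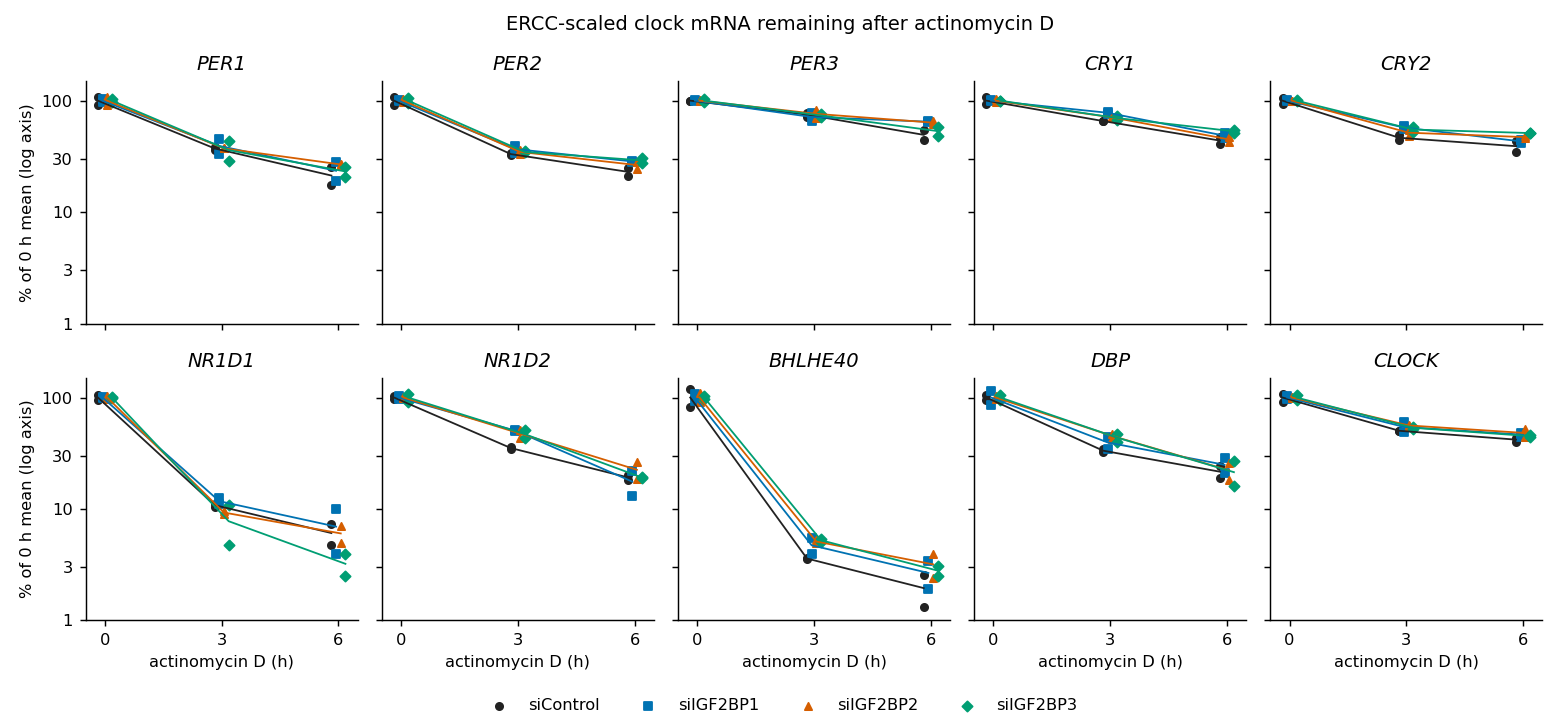
ERCC-scaled mRNA as a percentage of the 0 h mean of its condition (log axis) against hours in actinomycin D, one panel per gene, with a point for each of the 24 libraries and lines through the means of 2. BHLHE40 (at most 5.47% left at 3 h) and NR1D1 drop steeply and then flatten, while PER3 and CRY1 decline slowly.

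The PER genes encode the period proteins, which pair with the cryptochromes to hold CLOCK and BMAL1 inactive. PER1 in siControl kept 36.3% and 38.2% of its 0 h mean at 3 h and 25.2% and 17.4% at 6 h. Its slope was -2.24 (SE 0.27, adjusted p = 1.1e-07) there, beside -2.11, -1.92 and -2.14 in the 3 knockdowns in order of number. At 6 h the 8 libraries of PER1 lay between 17.4% and 28.0%, and the siControl pair spanned most of that range.

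PER2 kept 32.3% and 34.0% at 3 h in siControl, and 25.1% and 20.9% at 6 h. In the knockdowns it kept 28.8% and 28.2% (siIGF2BP1), 24.6% and 28.3% (siIGF2BP2) and 30.7% and 27.6% (siIGF2BP3) at 6 h. The siIGF2BP1 and siIGF2BP3 pairs lay above the siControl pair at 6 h, and the siIGF2BP2 pair overlapped it. At 3 h the siIGF2BP3 pair (34.99% and 34.3%) lay just above siControl, and the siIGF2BP1 (39.55% and 33.97%) and siIGF2BP2 pairs (33.3% and 36.01%) overlapped it. The slopes of PER2 differed from that of siControl (-2.13) by 0.31 (95% interval -0.54 to 1.15), 0.20 (-0.64 to 1.04) and 0.33 (-0.51 to 1.17), none of which was called.

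PER3 was the slow member of the family, at 71.6% and 78.2% of its 0 h mean at 3 h in siControl and 54.2% and 44.4% at 6 h. At 6 h the siIGF2BP1 libraries stood at 65.8% and 63.7%, the siIGF2BP2 libraries at 61.2% and 65.7%, and the siIGF2BP3 libraries at 58.0% and 48.6%. The first 2 knockdowns lay above siControl in both libraries at 6 h and siIGF2BP3 overlapped it. At 3 h all 3 overlapped siControl, with libraries at 77.0% and 65.7% (siIGF2BP1), 69.3% and 82.9% (siIGF2BP2) and 75.3% and 71.9% (siIGF2BP3). The slope difference in siIGF2BP1 was 0.39 (95% interval 0.00 to 0.78). Among the 10 it was the one difference with an unadjusted p under 0.05 in the line fit, and its adjusted p was 0.455. On the TMM scale that difference was 0.20 and in siIGF2BP3 it changed sign, from 0.11 to -0.10, with no call on either scale.

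The cryptochromes CRY1 and CRY2 are the main repressors of the loop, and their mRNAs were slower than those of PER1 and PER2. CRY1 in siControl kept 65.8% and 65.4% at 3 h and 46.8% and 40.9% at 6 h. At 3 h it kept 75.8% and 79.8% in siIGF2BP1, 70.7% and 70.6% in siIGF2BP2 and 67.2% and 72.4% in siIGF2BP3. All 6 knockdown libraries lay above the siControl pair at 3 h. How often this holds over all genes was not counted, here and for the mRNAs below. At 6 h the siIGF2BP1 (50.9% and 46.1%) and siIGF2BP2 libraries (42.2% and 47.5%) overlapped siControl, and the siIGF2BP3 libraries (54.5% and 51.7%) lay above it. The slope differences of CRY1 were 0.15 (95% interval -0.17 to 0.47), 0.03 (-0.28 to 0.35) and 0.27 (-0.04 to 0.59), with no call. On the TMM scale they were -0.04, -0.16 and 0.05, again with no call.

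CRY2 lost more in the first interval, to 44.0% and 48.9% at 3 h in siControl, and then slowed to 43.4% and 34.7% at 6 h. At 3 h it stood at 59.5% and 55.2% in siIGF2BP1, 48.3% and 54.9% in siIGF2BP2 and 51.9% and 58.2% in siIGF2BP3, and at 6 h at 44.3% and 42.0%, 46.1% and 48.0%, and 51.0% and 51.3%. The siIGF2BP1 and siIGF2BP3 pairs were above the siControl pair at 3 h, and the siIGF2BP2 and siIGF2BP3 pairs at 6 h. The slope difference was largest in siIGF2BP3, at 0.39 (SE 0.28, 95% interval -0.21 to 0.99, adjusted p = 0.435).

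NR1D1 and NR1D2 encode heme-binding nuclear receptors that repress through ROR response elements, and their mRNAs behaved apart from each other. NR1D1 in siControl was down to 11.2% and 10.5% at 3 h and 7.36% and 4.79% at 6 h, from 667 and 895 reads at 0 h to 74 and 46 reads at 6 h. At 6 h it stood at 9.94% and 3.95% in siIGF2BP1, 4.97% and 7.10% in siIGF2BP2 and 2.49% and 3.95% in siIGF2BP3, the last from 14 and 20 reads. The siIGF2BP3 pair lay below the siControl pair, and one siIGF2BP1 library lay below it too. The siIGF2BP3 slope was -5.40 against -4.17 in siControl, a difference of -1.23 (SE 0.95, 95% interval -3.25 to 0.79, adjusted p = 0.459), the only slope difference of any clock mRNA below -1. It rests on few reads, and at 3 h the siIGF2BP3 libraries already differed, at 10.8% and 4.76%. For the change from 0 to 6 h alone, the siIGF2BP3 difference was -0.93 (SE 0.36, unadjusted p = 0.00889, adjusted p = 0.121). In siIGF2BP1 and siIGF2BP2 it was 0.17 and -0.002.

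NR1D2 fell at an even pace, with 34.6% and 35.8% left at 3 h in siControl and 18.1% and 20.4% at 6 h. At 3 h it kept 51.2% and 49.6% in siIGF2BP1, 43.4% and 51.5% in siIGF2BP2 and 43.1% and 50.8% in siIGF2BP3, so all 6 knockdown libraries were above both siControl libraries. At 6 h the knockdown libraries ran from 13.1% to 26.4% and overlapped siControl. For the change from 0 to 3 h alone, an alternative chosen after the data were seen, NR1D2 differed by 0.51 (SE 0.22), 0.43 (SE 0.22) and 0.41 (SE 0.22) on the log2 scale in siIGF2BP1, siIGF2BP2 and siIGF2BP3, with unadjusted p = 0.0201, 0.0476 and 0.0665 and adjusted p of 1.00 in each. These 3 comparisons share the siControl libraries, and over 6 h the differences were -0.10, 0.24 and 0.02. With TMM scaling the slope differences were -0.29, 0.04 and -0.20.

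BHLHE40 encodes DEC1, a repressor that binds E-boxes and that many stimuli induce, and its mRNA was the fastest lost of the 10. In siControl it kept 3.62% and 3.56% at 3 h and 2.58% and 1.32% at 6 h, from 4526 and 4619 reads to 156 and 76. At 3 h it stood at 5.47% and 3.97% in siIGF2BP1, 5.24% and 4.97% in siIGF2BP2 and 5.38% and 5.10% in siIGF2BP3. All 6 knockdown libraries lay above the siControl pair at 3 h, and at 6 h the knockdown libraries, at 1.93% to 3.97%, overlapped siControl. From 0 to 3 h alone the differences were 0.39 (SE 0.19), 0.51 (SE 0.18) and 0.55 (SE 0.18), with unadjusted p = 0.0371, 0.00417 and 0.00256 and adjusted p = 1.00, 1.00 and 0.600. From 0 to 6 h alone they were 0.43, 0.68 and 0.52 (unadjusted p = 0.0369, 0.000406 and 0.0136, adjusted p = 0.259, 0.0592 and 0.138). The 2 siControl libraries at 0 h, against which all 3 are set, were themselves apart, at 118% and 81.6% of their mean. With TMM scaling the slope differences were 0.11, 0.55 and 0.16, beside 0.32, 0.72 and 0.40 with ERCC scaling, none called.

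DBP encodes an activator of D-box genes and is a direct output of CLOCK and BMAL1. It was the least read of the 10 at 0 h, with 228 and 379 reads in siControl at 0 h and 93 and 69 at 6 h, where 24.3% and 18.9% remained. At 3 h it kept 34.3% and 32.4% in siControl, 44.5% and 34.4% in siIGF2BP1, 47.5% and 42.7% in siIGF2BP2 and 47.3% and 39.9% in siIGF2BP3. Every knockdown library was above the siControl pair at 3 h, and at 6 h, at 15.9% to 28.6%, the knockdowns overlapped it. The slope differences of DBP were 0.20 (95% interval -0.59 to 0.98), 0.07 (-0.72 to 0.85) and 0.01 (-0.75 to 0.77). On the TMM scale they were 0.02, -0.11 and -0.20.

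CLOCK encodes the activator of the loop and kept 50.4% and 50.1% at 3 h and 43.6% and 40.1% at 6 h in siControl. At 6 h it kept 44.7% and 48.4% in siIGF2BP1, 44.2% and 51.8% in siIGF2BP2 and 44.1% and 45.9% in siIGF2BP3. All 6 knockdown libraries stood just above the siControl pair at 6 h. At 3 h the siIGF2BP2 (55.5% and 56.9%) and siIGF2BP3 libraries (52.2% and 54.8%) did so too, while those of siIGF2BP1 (59.7% and 49.2%) lay on both sides of it. The slope differences of 0.15 (95% interval -0.39 to 0.70), 0.20 (-0.35 to 0.74) and 0.10 (-0.45 to 0.65) were not called. With TMM scaling, which takes out the loss of the typical mRNA, they were -0.04, 0.00 and -0.12.

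No clock mRNA was called for a slope difference in any knockdown with edgeR or with DESeq2. Over all tested genes 0.0152% were called in siIGF2BP1, 0% in siIGF2BP2 and 0.0228% in siIGF2BP3 (2, 0 and 3 genes, and 4, 6 and 27 with DESeq2). At an unadjusted p under 0.05 the counts were 1, 0 and 0 of the 10 clock mRNAs and 1436, 896 and 2113 of all 13136 genes. For the change from 0 to 6 h alone, fitted on the 12 group means and so free of the bend, they were 3, 1 and 4 of the 10 and 2290, 1768 and 3175 of all genes. With that fit none of the 10 was called, beside 86, 72 and 195 of all genes. The median difference of the clock mRNAs was 0.15, 0.22 and 0.11, beside 0.19, 0.17 and 0.22 over all genes, so the typical mRNA was also lost more slowly in each knockdown on the ERCC scale, and with TMM scaling the median over all genes was -0.01, -0.02 and -0.01. The 3 comparisons share the 6 siControl libraries. How often, over all genes, all 6 knockdown libraries stand above the siControl pair at 1 time was not counted. A missed threshold does not show that the rates were alike: in siIGF2BP3 the 95% interval ran from -0.04 to 0.59 for CRY1, one of the narrowest, and from -2.16 to 2.96 for BHLHE40, the widest. These intervals are from the line fit, which leaves the bend in the residual. From 0 to 6 h alone the BHLHE40 difference in siIGF2BP3 was 0.52 (SE 0.21).

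**Figure D3:**
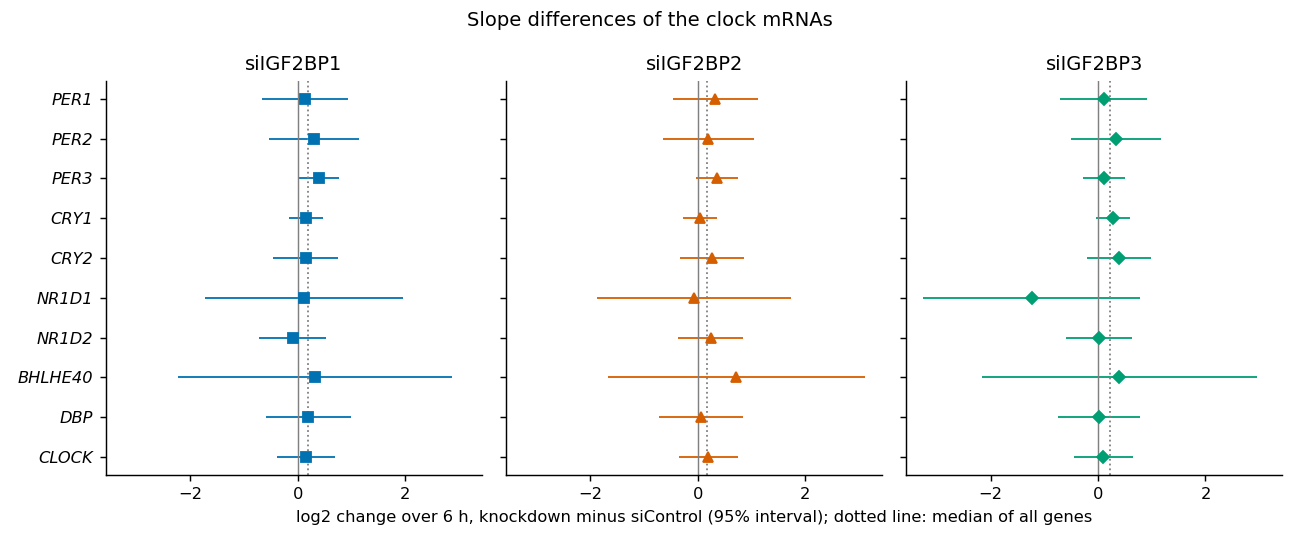
Slope difference of each clock mRNA, knockdown minus siControl, in log2 units over 6 h with its 95% interval from the fit over 24 libraries, and the median of all tested genes as a dotted line at 0.19, 0.17 and 0.22. All intervals but that of PER3 in siIGF2BP1 span 0, and those of NR1D1 and BHLHE40 are the widest.

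The loss was not first-order for most of these mRNAs. The bend, the log2 change from 0 to 3 h minus that from 3 to 6 h averaged over the 4 conditions, was called with faster early loss for 6 of the 10, where 25.5% of all tested genes were called that way. BHLHE40 lost 4.43 log2 units in the first 3 h and 0.83 in the next 3 (bend -3.61, SE 0.13). NR1D1 lost 3.32 and 0.90 (bend -2.43, SE 0.21), and PER2 lost 1.52 and 0.38 (bend -1.14, SE 0.10). PER1 (-0.74), CRY2 (-0.71) and CLOCK (-0.66) bent less, with adjusted p of 2.95e-05, 4.49e-10 and 2.71e-12. In these 6 the remaining fraction flattened in the continued presence of actinomycin D.

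PER3 (-0.07), CRY1 (0.08) and NR1D2 (0.02) had no called bend, and DBP (-0.49, SE 0.22) missed the threshold at an adjusted p of 0.0758. For NR1D2 the mean covers a faster early loss in siControl and a faster late loss in siIGF2BP1. Bends of single conditions were not tested. DBP was called when any one of 4 libraries was left out (adjusted p = 0.0327 to 0.0493), siControl 6 h replicate 2, siIGF2BP1 3 h replicate 1, siIGF2BP2 6 h replicate 1 or siIGF2BP3 6 h replicate 2. With TMM scaling CRY1 was called in the other direction, with slower early loss (0.22, adjusted p = 0.00945). A straight line through 3 times leaves the bend in the residual, and the SE of the slope was 0.85 for BHLHE40 and 0.61 for NR1D1 in siControl against 0.11 for CRY1.

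Half-lifetimes were computed with the first-order equation, as ln 2 over the mean of the decay constants from 0 to 3 h and from 0 to 6 h. They are given with the range over the 8 ways of taking one library per time. In siControl they were 0.785 h (0.723 to 0.859) for BHLHE40 and 1.15 h (1.08 to 1.22) for NR1D1. NR1D2 (2.23 h), DBP (2.23 h), PER2 (2.26 h) and PER1 (2.36 h) formed one group whose ranges overlapped throughout. CRY2 (3.36 h, 2.90 to 3.99) and CLOCK (3.71 h, 3.29 to 4.28) overlapped each other, and CRY1 (4.99 h, 4.27 to 6.03) and PER3 (6.47 h, 5.59 to 7.59) were the slowest. For a bent curve a half-lifetime depends on the interval: that of BHLHE40 was 0.625 h from 0 and 3 h and 1.06 h from 0 and 6 h.

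For siControl and then siIGF2BP1 to siIGF2BP3, the median half-lifetime of the 10 was 2.31, 2.62, 2.74 and 2.61 h. Over all genes with a positive decay constant it was 5.90, 6.51, 6.21 and 6.61 h in the same order. The value was longer than in siControl for 10, 9 and 9 of the 10 clock mRNAs, NR1D1 being the shorter one in siIGF2BP2 and siIGF2BP3. On the TMM scale 8 were longer and 2 shorter in siIGF2BP1, 8 and 1 in siIGF2BP2, where PER3 had no value, and 6 and 4 in siIGF2BP3. The share of all genes with a longer value was not counted on either scale. On the ERCC scale the all-gene median was also longer in each knockdown.

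The ranges of a knockdown and of siControl did not overlap for 5 of the 30 pairs. How often such ranges part over all genes was not counted, so the 5 cannot be called more than usual. CRY1 stood at 6.79 h (6.19 to 7.49) in siIGF2BP1 and CRY2 at 4.26 h (4.0 to 4.55), against 4.99 h and 3.36 h in siControl. CRY2 stood at 4.46 h (4.11 to 4.87) in siIGF2BP3. NR1D2 stood at 2.68 h (2.35 to 3.04) in siIGF2BP1 and 2.79 h (2.48 to 3.14) in siIGF2BP2, against 2.23 h (2.12 to 2.34). These are descriptions, and none of the slope tests called them.

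**Figure D4:**
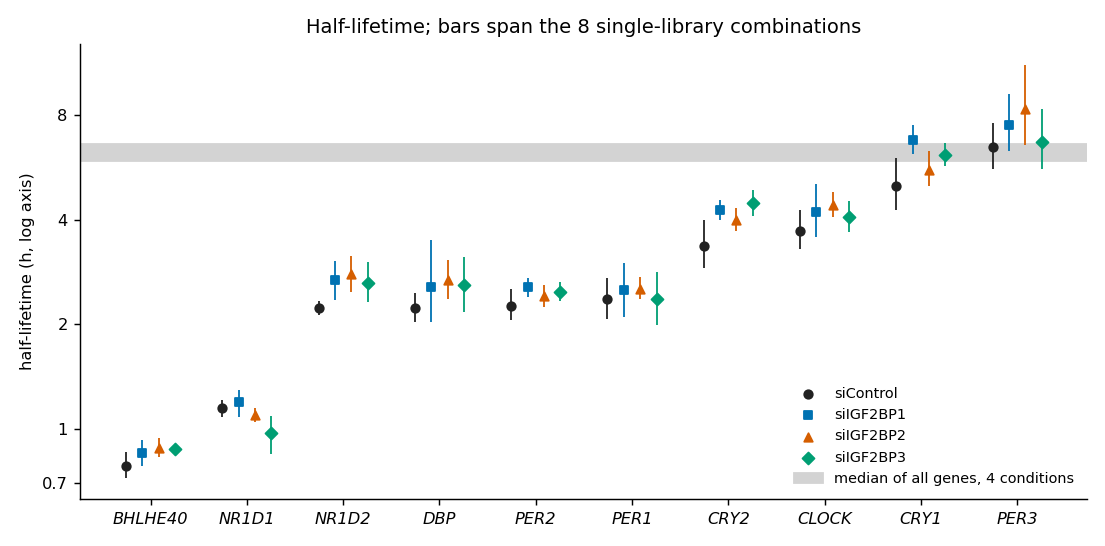
Half-lifetime of each clock mRNA (h, log axis) in the 4 conditions, ordered by siControl. Bars span the 8 combinations of one library per time and the grey band the all-gene medians of 5.90 to 6.61 h. Only CRY1 and PER3 reach the band.

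At 0 h, 4 of the 10 clock mRNAs differed from siControl in siIGF2BP1 and none in siIGF2BP2 or siIGF2BP3. The levels were compared with TMM scaling in a fit over the 12 group means (edgeR's quasi-likelihood test, Benjamini-Hochberg adjusted over 13136 genes). Called genes made up 15.9%, 12.1% and 9.39% of all tested genes in siIGF2BP1, siIGF2BP2 and siIGF2BP3. DESeq2 called 3, 0 and 0 of the clock mRNAs, and 2272, 1660 and 1402 of all tested genes. With edgeR 4, 2 and 1 clock mRNAs had an unadjusted p under 0.05, beside 3499, 3032 and 2720 of all tested genes. The median difference of the 10 was -0.01, -0.03 and 0.00, as near 0 as the all-gene medians of 0.01, 0.02 and 0.00.

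CLOCK was higher in siIGF2BP1, at 46.1 and 50.2 CPM against 41.0 and 39.8 in siControl, a log2 difference of 0.27 (SE 0.06, adjusted p = 0.00212). In siIGF2BP2 it stood at 37.1 and 37.6 CPM and in siIGF2BP3 at 37.3 and 39.1, both pairs just below siControl, with differences of -0.11 and -0.08 that were not called. CRY2 was higher in siIGF2BP1 too, at 24.1 and 24.8 CPM against 20.2 and 20.6 (0.28, SE 0.08, adjusted p = 0.0153). It stood at 19.9 and 19.6 CPM in siIGF2BP2 and 20.6 and 20.2 in siIGF2BP3, the first pair just below that of siControl and the second overlapping it.

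CRY1 moved the other way, at 17.6 and 17.9 CPM in siIGF2BP1 against 21.1 and 20.9 in siControl (-0.23, SE 0.08, adjusted p = 0.0426). It stood at 21.8 and 23.1 CPM in siIGF2BP2 and 21.2 and 20.3 in siIGF2BP3. The siIGF2BP1 pair was below all 6 other libraries. CRY1 was lower in siIGF2BP1 while CRY2 was higher, so the 2 cryptochrome mRNAs changed in opposite directions.

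BHLHE40 was lower in siIGF2BP1, at 50.1 and 59.1 CPM against 78.9 and 62.2 (-0.35, SE 0.12, adjusted p = 0.0367). It stood at 59.8 and 70.9 CPM in siIGF2BP2 and 57.6 and 58.0 in siIGF2BP3, where the difference was -0.28 (adjusted p = 0.155). The siIGF2BP1 call rests on siControl 0 h replicate 1 and siIGF2BP1 0 h replicate 1: without them the difference was -0.17 (adjusted p = 0.586) and -0.23 (adjusted p = 0.409). DESeq2 did not call it (adjusted p = 0.476).

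The other 3 calls depended on the libraries and the scaling to different degrees. CRY1 lost its call when any of the 4 libraries of siControl and siIGF2BP1 at 0 h was left out (adjusted p = 0.0996 to 0.240), and so did CRY2 (0.0609 to 0.112), while CLOCK lost it without siIGF2BP1 0 h replicate 2 (0.0844) and kept it in the other 3 leave-outs (0.00295 to 0.0432). CRY1 was also not called without the low-count filter (-0.22, adjusted p = 0.187). With ERCC scaling the differences were -0.25, 0.25 and 0.24 and none of the 3 was called (adjusted p = 0.257, 0.272 and 0.184). Directions held in each of these fits.

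**Figure D5:**
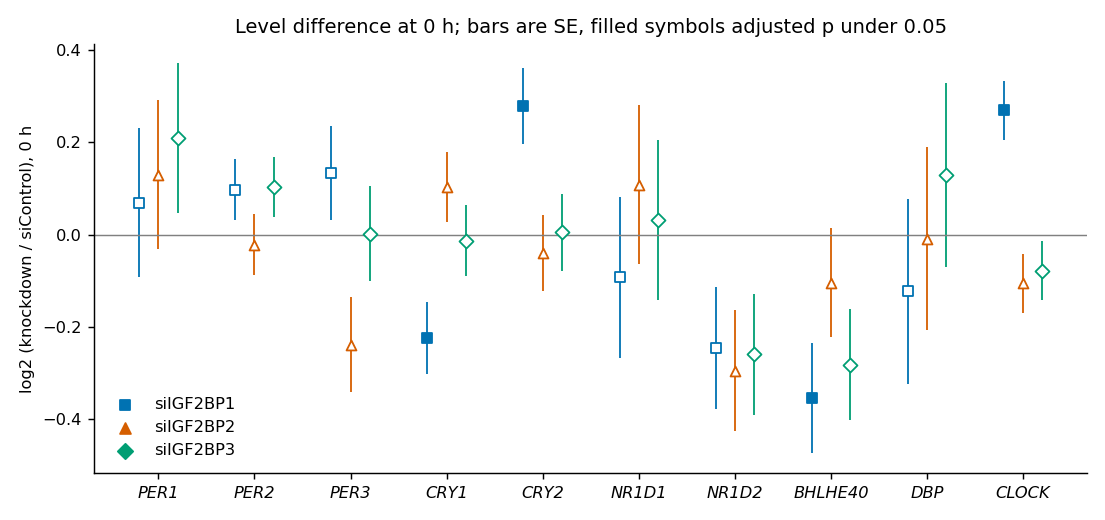
Level difference at 0 h of each clock mRNA in the 3 knockdowns, log2 knockdown over siControl with TMM scaling, bars as SE and filled symbols for an adjusted p under 0.05. The 4 filled symbols, CRY1, CRY2, BHLHE40 and CLOCK, are all in siIGF2BP1, and NR1D2 lies below 0 in all 3.

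Among the uncalled, NR1D2 was the one mRNA whose libraries lay below the siControl pair in all 3 knockdowns. It stood at 13.0 and 14.0 CPM in siControl, 11.6 and 10.9 in siIGF2BP1, 11.01 and 10.9 in siIGF2BP2 and 10.6 and 11.9 in siIGF2BP3. The log2 differences were -0.25, -0.29 and -0.26 (SE 0.13 in each), with adjusted p = 0.234, 0.157 and 0.262, and the 3 share the siControl pair. PER3 in siIGF2BP2 was at 10.6 and 10.1 CPM against 11.4 and 13.1 in siControl (-0.24, SE 0.10, unadjusted p = 0.0259, adjusted p = 0.142). The differences of PER1, PER2, NR1D1 and DBP ran from -0.12 to 0.21 over the 3 knockdowns, with SE up to 0.20 for DBP, whose siControl libraries stood at 3.98 and 5.10 CPM.

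The wider clock list held 20 further genes, of which RORB, BHLHE41 and CIART were too low to be tested. At 0 h 1, 3 and 2 of the 17 tested were called in siIGF2BP1, siIGF2BP2 and siIGF2BP3. Over all tested genes 15.9%, 12.1% and 9.39% were called, so these counts do not set the list apart. NPAS2, the paralog of CLOCK, was lower in siIGF2BP2, at 59.6 and 61.0 CPM against 92.8 and 91.2 (-0.60, SE 0.05, adjusted p = 2.46e-12). HLF, a PAR bZIP factor like DBP, was lower there as well, at 290 and 298 CPM against 388 and 387 (-0.39, SE 0.03, adjusted p = 1.6e-11). In the same cells CLOCK and DBP differed by -0.11 and -0.01 with no call.

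BMAL2 was lower in siIGF2BP1 (-0.36, SE 0.09, adjusted p = 0.00242) and siIGF2BP3 (-0.27, SE 0.09, adjusted p = 0.0408). BTRC, the F-box protein that targets PER proteins for degradation, was higher in siIGF2BP2 (0.30, SE 0.07, adjusted p = 0.00336) and siIGF2BP3 (0.31, SE 0.07, adjusted p = 0.00387). BMAL1, the partner of CLOCK, was low, at 4.24 and 4.62 CPM in siControl, and differed by 0.12, 0.13 and -0.01 (SE 0.19 in each). RORA, the activator that competes with NR1D1 and NR1D2, NFIL3, which represses D-box genes, and the PER kinases CSNK1D and CSNK1E were not called in any knockdown, with differences from -0.18 to 0.12.

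The wider list was lost less evenly than the 10. Loss was called for 17, 16, 15 and 15 of 17 in siControl, siIGF2BP1, siIGF2BP2 and siIGF2BP3, with TIMELESS, named here after its values were seen, and BMAL2 as the exceptions. The shares of all tested genes called lower were 80.3%, 69.1%, 71.3% and 67.2%. NFIL3 was short-lived, at 0.92 h in siControl beside 0.785 h for BHLHE40, with a slope of -5.09, while NPAS2 lasted 8.15 h and CSNK1D 6.07 h. BMAL1 stood at 4.43 h, CSNK1E at 6.68 h and RORA at 2.0 h. A bend with faster early loss was called for 8 of the 17, beside 25.5% of all tested genes, among them NFIL3 (-2.99) and RORA (-1.46). It was not called for BMAL1, NPAS2, CSNK1D or CSNK1E. No slope difference of the 17 was called in the line fit with edgeR. FBXW11, an E3 ligase subunit related to BTRC, was called in siIGF2BP3 with DESeq2 (0.49, adjusted p = 0.0488) and with edgeR for the change from 0 to 6 h alone (0.49, adjusted p = 0.0486).

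Over the 12 group means the genes most like each clock mRNA were ranked by Pearson's r of the log2 ERCC-scaled values, among 13136 genes. BHLHE40 was most like IER2 (r = 0.999), an immediate-early gene, and ELF2 (0.999), NR1D1 most like ZNF398 (0.996) and ZNF805 (0.995), and NR1D2 most like TOR4A and CHST10 (both 0.995). PER1 was most like DENND4A and SHANK2 (both 0.998), PER2 like ZNF708 (0.998) and STIL (0.997), and DBP like GARRE1 (0.997) and BICD1 (0.995). PER3 was most like STXBP5 (0.982) and SNORC (0.980), CRY1 like GNAI1 (0.993) and HNRNPA0 (0.992), CRY2 like HNF4A and SELENOO (both 0.991), and CLOCK like RNF169 (0.991) and ABCC6P1 (0.990). The 12 points are 3 times in 4 conditions and share the ERCC scaling, so r mostly follows the loss over time.

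Reads from a gene on the opposite strand could enter some of these values, because the strand setting of the counting is not given in the sources used here. Of the annotated exon bases of NR1D1 18.0% overlap THRA, of PER3 16.6% overlap UTS2 and a lncRNA, of BHLHE40 12.8% overlap BHLHE40-AS1 and of DBP 10.2% overlap SPHK2. For the other 6 the overlap was at most 2.7%. Its part in the values was not tested.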

How the data were processed

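HepG2 libraries were read from the deposited tables of raw read counts per gene, 1 per sample. The authors trimmed reads with Trimmomatic (0.39) and aligned them to hg38 with HISAT2 (2.1.0), per the submitters' processing notes, and counted them on GENCODE v29 genes with HTSeq, per the methods. The libraries were stranded, and the strand, overlap and multiple-mapping settings of the counting are not given in the sources used here. Rows that name no gene (13.6% to 17.1% of a library's reads) were left out of library sizes and tests.

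The clock members and the lists were chosen with earlier results of these data known. Symbols were joined by Ensembl ID; positions, exon lengths and 3′ UTRs come from GENCODE v44, a later release than the one counted. ERCC-scaled values are reads divided by the library's ERCC total relative to the mean of 24 libraries. Levels at 0 h were fitted on 12 group means with TMM, and slopes with a line on time for each condition (8 terms) with the ERCC total as library size. The bend used 12 group means with ERCC totals, a fit that also gave the changes from 0 to 3 h and from 0 to 6 h alone. Its p-values follow the normal tail of the estimate over its SE. They therefore rest on a spread pooled over genes and not on each gene's own replicates. All tests were edgeR 4.0.16 quasi-likelihood tests (R 4.3.3), two-sided, on genes that reached a CPM of 1 in 2 or more libraries, called at a Benjamini-Hochberg adjusted p under 0.05. Intervals of slope differences are the estimate and its SE times the 97.5th percentile of t with 16 degrees of freedom. DESeq2 1.42.0, other scalings, filters and time points, a replicate block and leaving out each library were alternatives. The code was tested on simulated data.

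The named genes are the 10 members, the siRNA targets, the wider clock genes that passed a test between siRNAs with BMAL1, NPAS2, RORA, NFIL3, CSNK1D and CSNK1E whatever they showed, and the 2 genes most like each member. In the 12 groups, replicates correlated at r = 0.991 to 0.997 and their counts differed by more than counting error (chi-square 3.24 to 8.51 per degree of freedom), and each was kept as its own replicate. Depth limits DBP and NR1D1 most, with 33 and 14 reads in their lowest libraries. RPKM was given without a test.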

Additional observations from a re-analysis of the deposited data

How the results depend on the processing

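At 0 h the 4 calls in siIGF2BP1 became 1 with ERCC scaling, 3 without the low-count filter, where CRY1 was not called, and 1 to 2 when a library was left out. In siIGF2BP2 and siIGF2BP3 no call became 1 in a fit on only the 4 libraries compared, and in siIGF2BP3 also 1 without the low-count filter (NR1D2, BHLHE40 and BHLHE40, all lower). Loss over time was called for 9 of 10 with TMM scaling in each condition and for 10 under the other alternatives. With TMM scaling PER3 changed sign to 0.04 in siIGF2BP1 and 0.02 in siIGF2BP2, and neither was called. No member was called for a slope difference under any alternative, and 6 were called for a bend with faster early loss under each of TMM scaling, DESeq2 and the replicate block, where TMM scaling also called CRY1 in the other direction. Of 240 slope differences of single members under alternatives other than leaving out a library 30 changed sign, and of 360 with a library left out 44 did, none of them called.

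The median half-lifetime moved by more than its spread over library combinations as follows. In siControl it was 3.52 h with TMM scaling, 2.05 h from 0 and 3 h, 2.77 h from 0 and 6 h and 2.75 h from the fitted slope. In siIGF2BP1 it was 3.81 h with TMM scaling, 3.15 h from 0 and 6 h and 3.12 h from the slope. In siIGF2BP2 these were 4.21, 3.14 and 3.11 h, and in siIGF2BP3 3.78, 3.11 and 3.07 h. Leaving out a library gave 2.25 to 2.48 h in siControl, 2.54 to 2.89 h in siIGF2BP1, 2.58 to 2.89 h in siIGF2BP2 and 2.53 to 2.72 h in siIGF2BP3. The TMM values leave out the loss that the typical mRNA shares, and the 3 h and 6 h values differ where curves bend.

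Replicates share only a number. Deviations of same-numbered libraries from their group means correlated at r = -0.04 to 0.10, and with a replicate block 4, 0 and 0 members were called at 0 h, 10 in each condition for loss, 0 for each slope difference and 6 for a bend, as without it. With 2 libraries a group and the bend left in the residual, the SE of the slope difference in the line fit was 0.85 to 0.95 for NR1D1 and 1.13 to 1.21 for BHLHE40. FBXW11 in siIGF2BP3, at 0.49 with an SE of 0.11, was not called in that fit. In the line fit, differences of BHLHE40 or NR1D1 of 2 log2 units, and larger ones, could therefore be missed. For the change from 0 to 6 h alone the SE was smaller, 0.19 to 0.21 for BHLHE40 and 0.31 to 0.41 for NR1D1. That SE rests on a spread pooled over genes.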
